A study of Homo sapiens with 12 samples.

Results

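RNA from MDA-MB-231 cells in which CD44 had been knocked out (CD44 KO) was compared with RNA from MDA-MB-231 cells that kept CD44 (CD44 WT), as whole-transcriptome RNA-seq counts per gene. The members were the 6 libraries whose labels name MDA-MB-231 and a CD44 status, 3 of CD44 KO and 3 of CD44 WT, out of 12 libraries in the series. This line was filtered and fitted alone, and 13609 of the 58381 genes in the table were tested. The other 6 libraries are the same pair of groups in Hs578T cells and were used only for the test of a difference between lines. MDA-MB-231 is a triple-negative breast cancer cell line with a mesenchymal appearance. All 4 groups carried a lentiviral, doxycycline-inducible Cas9 and were treated with doxycycline. The CD44 KO plates received guide RNAs against exons 1 and 5 of CD44, and the CD44 WT plates received the transfection reagent without guides. CD44 WT cells were then sorted as CD29+/CD44+ and CD44 KO cells as CD29+/CD44-, so that each group was a sorted population expanded in culture and not a single clone. Cells were starved in low serum before the RNA was taken. The comparison asks which transcripts differ between these sorted populations of the same line, with and without CD44 at the surface. Guides, sort gate and separate expansion differed together with CD44, so their parts cannot be told apart from that of CD44 loss.

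CD44 is a cell surface glycoprotein that binds hyaluronan, a large sugar polymer of the extracellular matrix. Inside the cell, its tail meets proteins of the band 4.1 and ezrin-radixin-moesin families and ankyrins, which connect it to the cortical cytoskeleton. It is known as a marker of cells with mesenchymal and stem-like properties in breast cancer, and it also serves as a coreceptor for growth factor receptors.

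Both target sites in CD44 are shown because they mark where the gene was cut and which stretch of chromosome 11 lies beyond it. They were read from GRCh38 on the minus strand, opposite to the gene. The exon 1 site spans chr11:35139360-35139379, with 11 of its 20 bases in exon 1 (35139171 to 35139370) and 9 beyond the end of the exon. The exon 5 site spans chr11:35190030-35190049 and lies wholly inside exon 5 (35189835 to 35190065). Capitals mark the PAM, the short motif that Cas9 needs beside its target.
CD44 exon 1 site: ggcactcaccgatctgcgccAGG
CD44 exon 5 site: gtctgtgctgtcggtgatccAGG
Each site had 1 exact match on chromosome 11, and the predicted cuts lay 50670 bases apart. The first cut is predicted after base 35139362 and the second after base 35190032.

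The libraries held 10257586 to 19725543 counts, the most in CD44 KO replicate 2. Values of single libraries are given below for CD44 KO replicates 1, 2 and 3 and then for CD44 WT replicate 1, CD44 WT replicate 3 and a CD44 WT library whose replicate number the labels do not settle (unnumbered). CD44 WT replicate 1 stood apart from the other CD44 WT libraries. The chi-square of its counts per gene was 32.4 and 21.3 against these libraries, which differed from each other by 6.12, while pairs of CD44 KO libraries differed by 6.23 to 15.9. Against the CD44 KO libraries, the other CD44 WT libraries differed by 13.6 to 20.4 and CD44 WT replicate 1 by 33.9 to 46.3. CD44 WT replicate 1 was thus further from its own group than the other CD44 WT libraries were from CD44 KO. Nothing in the sources used here tells if separate cultures gave the 3 libraries of each group, so p-values measure the spread between these libraries, which may be technical. The identity of the cells was checked against markers. All 10 mesenchymal triple-negative markers were detected above the filter in both groups, with a summed level of 7961 to 8918 CPM (counts scaled to a common library size) in CD44 WT and 9913 to 11158 CPM in CD44 KO. This sum follows VIM most, with 172332 counts over the CD44 WT and 274843 over the CD44 KO libraries. The markers include CD44 itself, and 6 of the 10 were fitted higher and 4 lower in CD44 KO. Of 13 leukocyte markers 1 passed the filter and 5 had no counts, of 9 fibroblast markers 2 passed and 3 had no counts, and of 12 luminal and hormone receptor markers 7 passed. In bulk RNA, fewer cells of a type and less RNA per cell cannot be told apart.

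CD44 (ENSG00000026508.18, chromosome 11, 35138870 to 35232402, plus strand) was counted first, because it checks the labels. It was at 39.0, 31.2 and 29.3 CPM in the CD44 KO libraries and at 343, 351 and 347 CPM in the CD44 WT libraries. The groups lay far apart, and the spread within each was small, with means of 33.2 ± 5.11 and 347 ± 3.93 CPM (SD, n = 3). CD44 fell by 3.39 on the log2 scale (standard error 0.127, adjusted p = 2.12e-06). Here and below, log2 fold changes are CD44 KO relative to CD44 WT, and adjusted p-values come from the quasi-likelihood test of edgeR with the adjustment of Benjamini and Hochberg. CD44 transcripts remained in CD44 KO, with 476, 611 and 304 counts. On the TPM scale, which takes account of gene length, the mean of CD44 fell from 128 to 12.5.

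A gene was called where its adjusted p was 0.01 or less, and 315 of 13609 genes (2.31%) were called, 208 of them lower and 107 higher in CD44 KO. Genes of chromosome 11 that end before CD44, on the side of the short arm's end, are called distal 11p here and are described apart, because 42 of the lower calls lay there. Outside distal 11p, 273 of 13427 genes (2.03%) were called, 166 lower (1.24%) and 107 higher (0.797%) in CD44 KO. The decreases were deeper than the increases, with a median log2 fold change of -2.31 among the lower and 1.22 among the higher genes. The log2 fold change was 2 or more in size for 91 of the lower and 17 of the higher genes. Called genes were mostly protein coding (252 of 11551 tested), with 16 of 917 long noncoding RNAs. The 2 groups did not overlap for 3675 of all 13427 genes (27.4%), with CD44 KO below in 1741 and above in 1934, and all 273 called genes were among these. The number of calls depended on single libraries. It was 407 without CD44 WT replicate 1, 214 without the unnumbered CD44 WT library, 142 without CD44 WT replicate 3, and 140, 98 and 157 without CD44 KO replicates 1, 2 and 3, and the fit without CD44 WT replicate 1 held 275 of the 315 called genes.

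**Figure D1:**
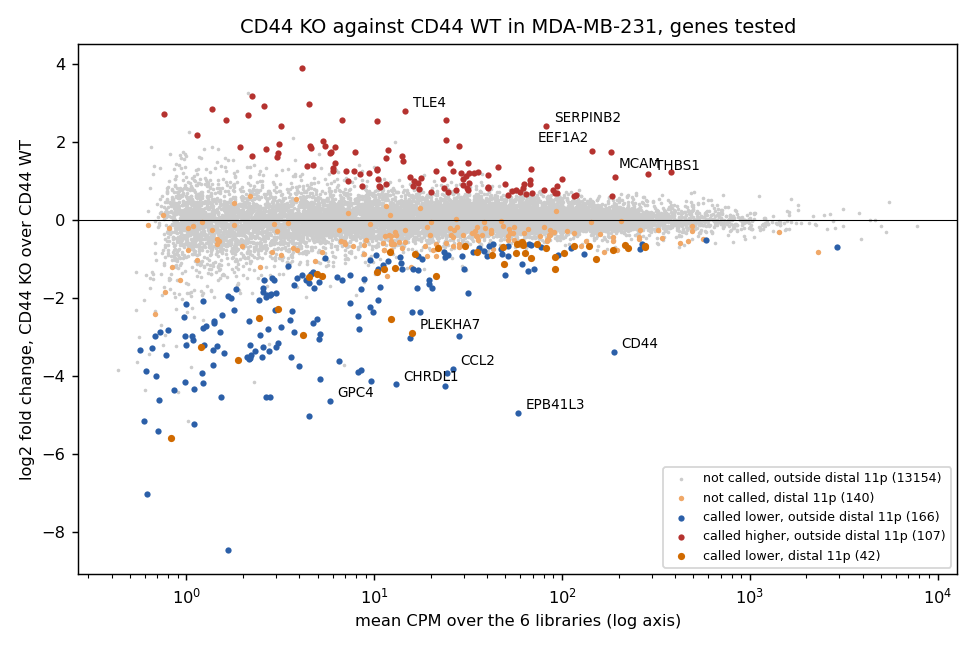
The log2 fold change, CD44 KO relative to CD44 WT (vertical axis), is plotted against the mean CPM over the 6 libraries (horizontal log axis) for each gene tested, 1 point a gene, with called genes coloured. Called decreases reach further from 0 than called increases, with medians of -2.31 and 1.22 outside distal 11p.

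Among genes with a mean of at least 5 CPM and groups that did not overlap, the largest decrease outside distal 11p was in EPB41L3. This band 4.1 protein ties membrane proteins to the spectrin and actin skeleton. It was at 3.19, 3.11 and 4.92 CPM in CD44 KO and at 69.5, 132 and 138 CPM in CD44 WT. All CD44 KO libraries lay below CD44 WT, in which replicate 1 was lowest, and the log2 fold change was -4.95 (standard error 0.305, adjusted p = 2.44e-05). GPC4, a glypican that carries heparan sulfate at the cell surface, was at 0.327, 0.613 and 0.289 CPM in CD44 KO against 12.4, 10.5 and 10.9 CPM in CD44 WT, and fell by 4.64 on the log2 scale (standard error 0.268, adjusted p = 2.14e-05). HS6ST2, an enzyme that adds 6-O-sulfate to heparan sulfate chains, was at 1.31, 1.07 and 0.578 against 15.5, 14.7 and 15.8 CPM, and fell by 3.91 on the log2 scale. A core protein and an enzyme of heparan sulfate were thus both among the 15 largest decreases. Both genes lie between 120 and 140 Mb of the X chromosome, where 3 of 57 tested genes were called, all lower.

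Secreted and signalling proteins were also among these decreases. CHRDL1, a secreted antagonist that binds bone morphogenetic proteins, was at 1.31, 1.33 and 1.35 CPM in CD44 KO against 22.9, 26.3 and 25.4 CPM in CD44 WT (log2 fold change -4.22, standard error 0.165, adjusted p = 2.12e-06). CCL2, the monocyte-attracting chemokine, was at 4.01, 2.76 and 3.86 CPM against 67.0, 46.0 and 34.7 CPM (log2 fold change -3.83), and here CD44 WT replicate 1 was the highest library. The groups did not overlap for either gene, which their selection required, and CCL2 varied more within CD44 WT. SYK, a cytoplasmic tyrosine kinase best known from immune receptor signalling, was at 1.31, 1.02 and 0.964 CPM against 18.2, 14.7 and 14.6 CPM (log2 fold change -3.85). IL13RA2, a decoy receptor for interleukin 13, fell by 3.63, and PELI2, a ubiquitin ligase of Toll-like and interleukin 1 receptor signalling, fell by 3.05 on the log2 scale. CHRDL1 and IL13RA2 both lie between 100 and 120 Mb of the X chromosome, where 9 of 84 tested genes were called, all lower.

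The remaining large decreases were of mixed function. CADM1, a cell adhesion molecule of the immunoglobulin superfamily, was at 0.818, 0.511 and 0.386 CPM against 9.81, 8.08 and 11.3 CPM (log2 fold change -4.07, standard error 0.281, adjusted p = 6.12e-05). PGM5, a phosphoglucomutase relative found at adherens junctions, fell by 4.13. The noncoding RNAs CASC19, LINC01088 and TP73-AS1 fell by 4.25, 3.91 and 3.04. MAGEA3, a cancer-testis antigen, fell by 2.97, and LRATD1 fell by 2.94. Each of these 15 decreases was called in every fit that left out 1 library.

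Among genes with a mean of at least 5 CPM and groups that did not overlap, the largest increase outside distal 11p was that of TLE4, a Groucho-type corepressor that acts with WNT and other transcription factors. It was at 29.2, 26.1 and 21.4 CPM in CD44 KO and at 3.73, 3.37 and 4.04 CPM in CD44 WT, so that the groups lay well apart and TLE4 rose by 2.79 on the log2 scale (standard error 0.172, adjusted p = 2.44e-05). ADIRF, named as an adipogenesis regulatory factor, was at 41.4, 37.4 and 45.3 CPM against 10.1, 5.80 and 4.98 CPM (log2 fold change 2.56). HSD11B1, which converts cortisone to active cortisol, was at 8.18, 9.75 and 16.7 CPM against 1.70, 2.82 and 1.29 CPM (log2 fold change 2.54). CD44 KO replicate 3 was the highest library for ADIRF and HSD11B1.

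Protease inhibitors stood high in this order. SERPINB2, an inhibitor of plasminogen activators, was at 188, 128 and 101 CPM in CD44 KO against 28, 24.1 and 26.9 CPM in CD44 WT (log2 fold change 2.40, standard error 0.211, adjusted p = 0.000242). SERPINB7, of the same clade, was at 23.7, 15 and 14.4 CPM against 3.49, 3.06 and 2.66 CPM (log2 fold change 2.52). CD44 KO replicate 1 was the highest library for both genes, which lie close together on chromosome 18. BST2, an interferon-inducible membrane protein that holds budding virus at the cell surface, was at 34.4, 35.3 and 46.8 CPM against 10.2, 11.1 and 6.95 CPM (log2 fold change 2.04).

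INHBA, which encodes the activin A subunit, rose by 2.02 on the log2 scale, from 2.11 ± 0.481 to 8.58 ± 0.940 CPM (SD, n = 3). TGFBI and PMEPA1, both known as genes induced by TGF-beta, rose by 1.80 and 1.75. MCAM, an adhesion molecule of melanoma and endothelial cells, was at 305, 276 and 261 CPM in CD44 KO against 89.9, 83.9 and 78.0 CPM in CD44 WT (log2 fold change 1.74, standard error 0.106, adjusted p = 2.44e-05). EEF1A2, a translation elongation factor that is normally restricted to few tissues, was at 224, 244 and 200 CPM against 75, 60.4 and 61.9 CPM (log2 fold change 1.76). The groups did not overlap for any of these genes, which their selection required. TIE1, a receptor tyrosine kinase of endothelial cells, rose by 1.90, LINC03033 by 1.88, LINC00665 by 1.87 and the membrane-type metalloproteinase MMP16 by 1.73. LINC03033 lost its call without CD44 WT replicate 3 (adjusted p = 0.0107), and MMP16 lost it without CD44 KO replicate 1, 2 or 3 (adjusted p up to 0.0137), while the other 13 increases were called in every fit that left out 1 library.

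**Figure D2:**
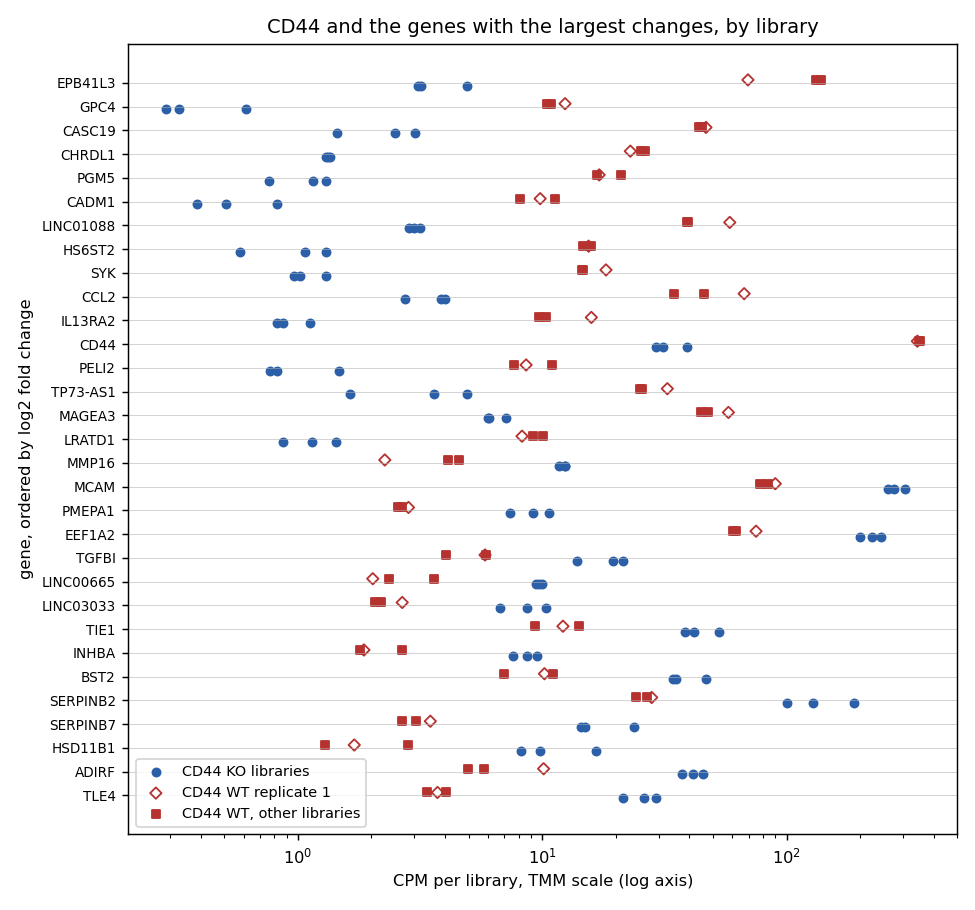
CPM in each library (horizontal log axis) is plotted for CD44 and the 15 largest decreases and 15 largest increases outside distal 11p among called genes with a mean of at least 5 CPM and groups apart (vertical axis, ordered by log2 fold change). Circles are the 3 CD44 KO libraries, squares the CD44 WT libraries and the open diamond CD44 WT replicate 1. In no gene do the circles overlap the other symbols, which the selection required for all genes but CD44. Ranges run from EPB41L3 (3.11 to 4.92 against 69.5 to 138 CPM) to TLE4 (21.4 to 29.2 against 3.37 to 4.04 CPM).

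TIE1 is also a defining marker of endothelial cells. It was at 38.5, 41.9 and 53.1 CPM in CD44 KO and at 12.2, 14.1 and 9.36 CPM in CD44 WT. Of the 9 endothelial markers, 3 passed the filter, with a summed level of 17.6 to 22.3 CPM in CD44 WT and 52.3 to 66.6 CPM in CD44 KO, and 4 defining markers (TEK, CLDN5, ERG and EMCN) had no counts in any library. Of the other markers that passed, the VEGF receptor KDR had a log2 fold change of 1.02 (adjusted p = 0.0288) and PECAM1 one of 0.34. CDH5 had 3 counts over the CD44 KO libraries and 2 over the CD44 WT libraries, and VWF had 8 and 7.

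The gene families and pathways were read next, each as a list of genes fixed by name. Of the 13427 genes outside distal 11p, 1226 were in at least 1 list, and 79 of the 273 called genes were among them. The median log2 fold change over all 13427 genes was 0.0033, and 2.03% were called, which is the background for every list below. A list's count and median describe it, and no list was tested as a set.

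**Figure D3:**
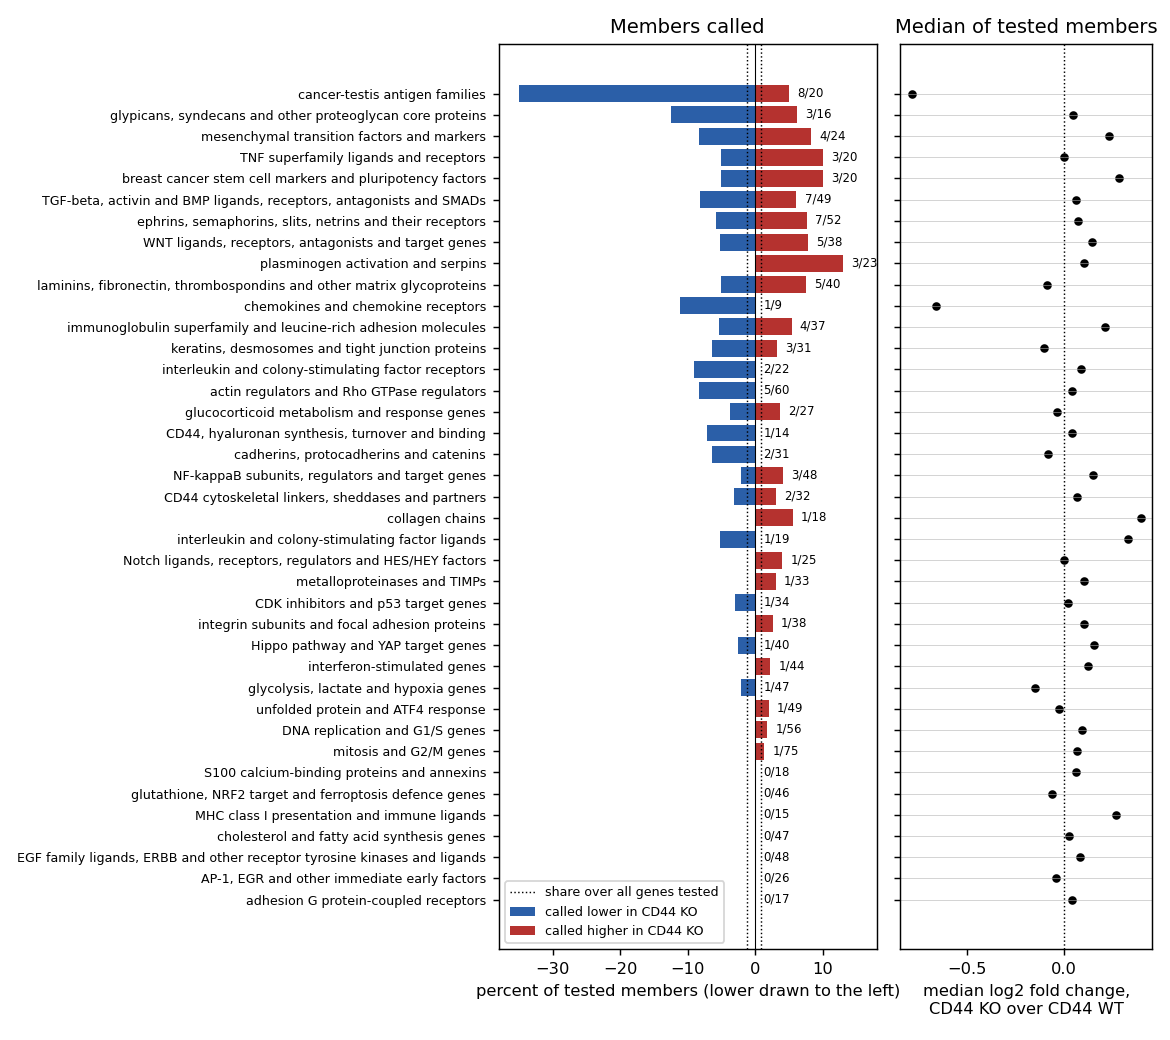
The left panel shows for each gene list the percent of its tested members called lower (bars to the left) and higher (bars to the right) in CD44 KO, with dotted lines at the shares over all genes tested outside distal 11p, 1.24% and 0.797%. The right panel shows the median log2 fold change of the tested members, and the cancer-testis antigens stand furthest to the left in both, with 7 of 20 lower and a median of -0.78.

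Genes of hyaluronan synthesis, turnover and binding moved little beside CD44 itself. Of 14 tested members only CD44 was called, and the list's median was 0.04. HAS2, a hyaluronan synthase at 11.4 TPM in CD44 WT where HAS3 was at 1.08 TPM, was at 22.0, 18.4 and 13.5 CPM in CD44 KO and at 6.32, 14.5 and 17.1 CPM in CD44 WT, so that the groups overlapped (log2 fold change 0.51, standard error 0.312, adjusted p = 0.396). The hyaluronidase HYAL2 (log2 fold change 0.02), the hyaluronan-degrading CEMIP2 (0.13), the intracellular hyaluronan receptor HMMR (0.17), the lectin-type receptor LAYN (-0.10) and the precursor enzyme UGDH (0.03) were close to 0, with standard errors of 0.12 to 0.151. CEMIP, HYAL3, HAS3, HAPLN3, TLR2, TLR4 and HABP4 had log2 fold changes from -0.75 to 0.61 and adjusted p-values of at least 0.208.

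Of 32 tested linkers, sheddases and partners of CD44, 2 were called, and the median was 0.07. EPB41L3 fell, as given above, and ANK3, an ankyrin that joins membrane proteins to spectrin, rose from 2.73 ± 0.475 to 8.95 ± 2.00 CPM (SD, n = 3; log2 fold change 1.70, adjusted p = 0.00293). The call of ANK3 was lost without CD44 KO replicate 1, CD44 KO replicate 3 or CD44 WT replicate 3 (adjusted p up to 0.0154). Without CD44 WT replicate 1, 5 of the 32 were called, 3 lower and 2 higher.

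The 5 called genes among 60 actin regulators were all lower (5 lower and 1 higher without CD44 WT replicate 1), against a list median of 0.05. DAAM2, a formin that nucleates actin filaments, was at 2.13, 2.66 and 2.70 CPM in CD44 KO against 16.1, 12.6 and 13.2 CPM in CD44 WT (log2 fold change -2.48, standard error 0.186, adjusted p = 9.83e-05). MISP, an actin-bundling protein of the mitotic cortex, and COBL, an actin nucleator, fell by 2.31 and 2.05. MYO1D, a class I myosin, fell by 1.26 and KANK1, a regulator of actin and focal adhesions, by 0.92. MISP lost its call without any 1 of the CD44 KO libraries or without CD44 WT replicate 3 (adjusted p up to 0.0185), COBL without CD44 KO replicate 2 (0.0170), MYO1D without CD44 KO replicate 1 or 2 (up to 0.0140), and KANK1 in 5 of 6 such fits, all but that without CD44 WT replicate 1 (up to 0.0425). Among Hippo pathway genes and targets of the coactivator YAP, 1 of 40 was called, AMOT, an angiomotin that holds YAP in the cytoplasm. It was at 0.90, 0.409 and 0.482 CPM against 5.84, 6.74 and 7.38 CPM (log2 fold change -3.51, adjusted p = 0.000203), while CCN1, a secreted matricellular protein and YAP target, had a log2 fold change of -0.58 (adjusted p = 0.0180). AMOT lies, like CHRDL1 and IL13RA2, between 100 and 120 Mb of the X chromosome, where 9 of 84 tested genes were called, all lower.

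Inflammatory ligands were few in this line, and 2 of them fell. Only 9 chemokines and chemokine receptors passed the filter, and CCL2 was the 1 called. The summed level of the 9 genes was 89.8 to 112 CPM in CD44 WT and 35.8 to 49.7 CPM in CD44 KO. Most of this difference was that of CCL2, whose levels are given above, so the sum does not describe the other members. Of the 9 log2 fold changes, 3 lay above 0 and 6 below. Of 19 interleukin and colony-stimulating factor ligands, IL18 was called, at 36.3, 34.0 and 35.8 CPM against 75.4, 60.4 and 67.0 CPM (log2 fold change -0.94, standard error 0.116, adjusted p = 0.00163), and the list's median was 0.34. Of 22 receptors of these ligands, IL13RA2 and CSF2RA fell, the latter from 3.89 ± 1.41 to 0.335 ± 0.288 CPM (SD, n = 3; log2 fold change -3.51). IL18 lost its call without CD44 KO replicate 1, 2 or 3 (adjusted p at most 0.0177), and CSF2RA without CD44 KO replicate 2 or 3 (up to 0.0247).

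In the TNF superfamily 3 of 20 genes were called, with a median of 0.00062. The ligand TNFSF18 fell by 2.64 on the log2 scale. The receptors NGFR and TNFRSF19 rose by 1.94 and 1.25, NGFR from 1.46, 1.33 and 1.03 CPM in CD44 WT to 4.50, 5.16 and 5.11 CPM in CD44 KO. TNFSF18 lost its call without any 1 of the CD44 KO libraries (adjusted p up to 0.0234), TNFRSF19 without CD44 KO replicate 1 or 2 or CD44 WT replicate 3 (up to 0.0362), and NGFR without CD44 KO replicate 2 (0.0121). Among 48 NF-kappaB subunits, regulators and targets, CCL2 fell, and SERPINB2 and TLR6 rose, the latter by 0.87, with its call lost in each of the 6 fits without 1 library (adjusted p up to 0.0478). The median of these 48 genes was 0.15.

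In the TGF-beta superfamily 7 of 49 genes were called, and the ligands and their antagonists moved in both directions around a median of 0.07. Among ligands, INHBA rose while INHBB, the other activin beta subunit, fell, from 37.9, 44.4 and 46.0 CPM in CD44 WT to 17.2, 20.6 and 15.3 CPM in CD44 KO (log2 fold change -1.26, standard error 0.144, adjusted p = 0.00108). BMP4 fell by 0.89, from 143, 115 and 111 CPM to 75.7, 59.7 and 63.3 CPM. Among secreted antagonists, CHRDL1 fell, whereas FST, which binds activin, rose from 121, 122 and 124 CPM to 309, 277 and 200 CPM (log2 fold change 1.10), and NOG, which binds bone morphogenetic proteins, rose from 21.4, 21.8 and 22.8 CPM to 44, 45.2 and 36.4 CPM (log2 fold change 0.93). FSTL1, a follistatin-like secreted protein, fell by 0.75. The CD44 WT libraries varied little for FST and NOG, and the CD44 KO libraries all lay above them. FST and NOG lost their calls without CD44 KO replicate 1, CD44 KO replicate 2 or CD44 WT replicate 3 (highest adjusted p 0.0168 and 0.0225). BMP4 lost its call without CD44 KO replicate 2 or 3 or CD44 WT replicate 3 (up to 0.0369), and FSTL1 in 5 of 6 such fits, all but that without CD44 WT replicate 1 (up to 0.0591).

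WNT pathway genes had 5 of 38 members called and a median of 0.15. WNT5A, a ligand of noncanonical WNT signalling, fell by 3.21 from a low level, from 82 to 10 counts over the 3 libraries of a group, and the receptor FZD4 fell by 0.81. The corepressors TLE4 and TLE2 rose by 2.79 and 1.33, and TNFRSF19, a WNT target, rose as given above. WNT5A, TLE2 and FZD4 each lost the call in 5 of 6 fits without 1 library, all but that without CD44 WT replicate 1 (highest adjusted p 0.0369, 0.0499 and 0.0237), and TNFRSF19 lost it without CD44 KO replicate 1 or 2 or CD44 WT replicate 3. Of 25 Notch pathway genes, DLK2, a noncanonical ligand, was called, with a log2 fold change of 0.80, and lost its call in the same 5 fits (adjusted p up to 0.0532).

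Proteoglycan core proteins had 3 of 16 members called and a median of 0.05. GPC4 fell, and SPOCK1, a secreted testican, was at 6.96, 7.61 and 8.97 CPM in CD44 KO against 14.5, 31.6 and 32.2 CPM in CD44 WT, with replicate 1 lowest (log2 fold change -1.74, adjusted p = 0.00684). CSPG4, the chondroitin sulfate proteoglycan NG2, rose from 20.7 ± 4.01 to 47.4 ± 4.86 CPM (SD, n = 3; log2 fold change 1.19, adjusted p = 0.00209). SPOCK1 lost its call in 5 of 6 fits without 1 library, all but that without CD44 WT replicate 1 (adjusted p at most 0.0377), and CSPG4 without any 1 of the CD44 KO libraries (up to 0.0108). Without CD44 WT replicate 1, 5 of the 16 were called, 4 lower and 1 higher.

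Cell adhesion molecules changed gene by gene. In the immunoglobulin superfamily and leucine-rich group 4 of 37 were called around a median of 0.21. CADM1 and SLITRK1, a synaptic leucine-rich protein, fell, SLITRK1 from 15.7 ± 2.37 to 3.33 ± 0.276 CPM (SD, n = 3; log2 fold change -2.23, adjusted p = 0.000141). MCAM rose, and CNTN1, a contactin, rose by 2.18 from 15 counts in all CD44 WT libraries to 79 in all CD44 KO libraries. Of 31 cadherins and catenins, CDH11, a mesenchymal cadherin, and CTNND2, a delta-catenin, fell by 2.06 and 3.58, and 5 of the 31 were called lower without CD44 WT replicate 1. Of 38 integrin and focal adhesion genes outside distal 11p, ITGB8 was called, rising from 1.5 ± 0.535 to 4.58 ± 0.427 CPM (SD, n = 3), and PARVA, a focal adhesion protein encoded in distal 11p, fell by 0.67. None of 17 adhesion G protein-coupled receptors was called, and ADGRE5, a receptor of leukocytes and tumour cells, lay at -0.16 on the log2 scale (standard error 0.109, adjusted p = 0.452). CNTN1 and ITGB8 lost their calls in each of the 6 fits without 1 library (highest adjusted p 0.0369 and 0.0379), and PARVA in all but that without CD44 WT replicate 1 (up to 0.0586).

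Axon guidance ligands and receptors had 7 of 52 members called, 3 lower and 4 higher, with a median of 0.08. NTNG1, a membrane-bound netrin relative, had no counts in CD44 KO and 45 in CD44 WT, at least 17.2-fold lower when the CD44 KO sum is set to a floor of 3 counts. SEMA5A, a transmembrane semaphorin, was at 0.246, 0.306 and 0.578 CPM against 3.24, 4.31 and 4.64 CPM (log2 fold change -3.47, adjusted p = 0.000465), and the ephrin receptor EPHB3 fell by 1.54. EPHB2, a related receptor, rose from 45.9, 45.6 and 44.4 CPM to 78.5, 77.9 and 81.5 CPM (log2 fold change 0.81, standard error 0.0959), and the secreted SEMA3D and NTN1 rose by 1.90 and 1.64. The remaining call was SEMA7A, also higher, which is named here after its value was seen. SEMA3D and NTN1 lost their calls in all 6 fits without 1 library but that without CD44 WT replicate 1 (highest adjusted p 0.0377 and 0.050), EPHB3 in each of the 6 (up to 0.0309), EPHB2 without CD44 KO replicate 2 or CD44 WT replicate 3 (up to 0.0135), and NTNG1, which was tested in 4 of these fits, kept its call in 1 and lost it without any 1 of the CD44 KO libraries (up to 0.0346).

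Collagen chains lay above 0 as a group, with 16 of 18 positive log2 fold changes and a median of 0.40, but only COL5A1 was called. It was at 35.0, 43.4 and 40.1 CPM in CD44 KO and at 21.3, 24.5 and 21.9 CPM in CD44 WT (log2 fold change 0.81, adjusted p = 0.00583). The summed level of the 18 genes was 858 to 1002 CPM in CD44 WT and 1184 to 1284 CPM in CD44 KO. Of 40 other matrix glycoproteins, 5 were called, with a median of -0.09. The matricellular proteins TNC and THBS1 rose, TNC from 30.4, 41.3 and 46.6 CPM to 102, 98.1 and 92.3 CPM (log2 fold change 1.31) and THBS1 from 148, 195 and 183 CPM to 425, 334 and 434 CPM (log2 fold change 1.18). TGFBI, an integrin-binding matrix protein, rose too, while FBLN5, a fibulin of elastic fibres, and MATN2, a matrilin, fell by 1.2 and 1.12. COL5A1 lost its call in all 6 fits without 1 library but that without CD44 WT replicate 1 (adjusted p up to 0.0449), FBLN5 in each of the 6 (up to 0.0601), and MATN2 without CD44 KO replicate 1 or 2 or CD44 WT replicate 3 (up to 0.0194).

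Of 33 metalloproteinases and their inhibitors, only MMP16 was called, and the median was 0.10. The 3 called genes among 23 of plasminogen activation and serpins all rose, namely SERPINB7, SERPINB2 and TFPI2, a secreted Kunitz-type inhibitor. TFPI2 was at 37.6, 38.1 and 44.2 CPM in CD44 KO against 16.8, 19.8 and 21.3 CPM in CD44 WT (log2 fold change 1.05, adjusted p = 0.00184) and lost its call without CD44 KO replicate 2 or 3 or CD44 WT replicate 3 (adjusted p up to 0.0123). The median of these 23 genes was 0.11.

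Markers of epithelial and mesenchymal state were described by 3 lists. Of 31 keratin, desmosome and tight junction genes outside distal 11p, 3 were called around a median of -0.10. CLDN1, a tight junction claudin, fell from 12.6, 11.7 and 12.2 CPM in CD44 WT to 3.36, 3.06 and 1.64 CPM in CD44 KO (log2 fold change -2.14, standard error 0.228, adjusted p = 0.000677), ESRP2, an epithelial splicing factor, fell by 1.26, and the hair keratin KRT81 rose by 1.47. Of 24 transcription factors and markers of mesenchymal transition, CDH11 and FSTL1 fell and TGFBI and PRRX1 rose, PRRX1 being a mesenchymal homeobox factor at 0.730, 0.941 and 0.859 CPM in CD44 WT and 2.86, 3.83 and 2.41 CPM in CD44 KO. This list's median was 0.24, and its summed level was 6805 to 7262 CPM in CD44 WT and 8552 to 9477 CPM in CD44 KO. VIM, the intermediate filament vimentin, had a log2 fold change of 0.45 (adjusted p = 0.0224) and was not called. It is abundant, with 172332 counts over the CD44 WT libraries and 274843 over the CD44 KO libraries. The summed level therefore follows VIM more than the other members. KRT81 lost its call in all 6 fits without 1 library but that without CD44 KO replicate 1 (adjusted p up to 0.0414), PRRX1 in each of the 6 (up to 0.0436), and ESRP2 without CD44 KO replicate 2 (0.0177).

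Of 20 breast cancer stem cell markers and pluripotency factors, CD44 fell, and ALDH1A3, an aldehyde dehydrogenase, and BMI1, a Polycomb protein, rose by 0.86 and 0.77. ALDH1A3 was at 13.7, 13.6 and 13.8 CPM against 6.40, 8.39 and 7.81 CPM, with its call lost in each of the 6 fits without 1 library (adjusted p at most 0.0557), and BMI1 lost its call in all of them but that without CD44 WT replicate 1 (up to 0.0409). The median of the list was 0.29. None of the 7 tested luminal markers was called, while DESeq2, an adjusted p limit of 0.05 and the fit of all 12 libraries (9 markers tested) each called 2 higher and none lower. GATA3, a luminal transcription factor, was at 7.28, 5.92 and 6.36 CPM in CD44 KO and at 3.81, 3.14 and 2.32 CPM in CD44 WT (log2 fold change 1.07, adjusted p = 0.0206). FOXA1, a pioneer factor of luminal cells, was at 7.12, 9.09 and 8.0 CPM against 3.16, 3.84 and 5.24 CPM (log2 fold change 0.99, adjusted p = 0.0264). The groups did not overlap in either gene, and both are named after their values were seen. The summed level of the luminal markers was 1210 to 1492 CPM in CD44 WT and 996 to 1139 CPM in CD44 KO. The simple keratins KRT18 and KRT8 had log2 fold changes of -0.41 and -0.28, with adjusted p-values of 0.0651 and 0.212.

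In the lists of growth signalling, cell division and stress response, 0 to 1 gene each was called, beside 2.03% of all genes outside distal 11p. None of 48 EGF family ligands and receptor tyrosine kinases with their ligands was called, and AXL, a receptor kinase of mesenchymal cells, lay at 0.31 on the log2 scale (standard error 0.124, adjusted p = 0.193). None of 26 AP-1 and immediate early factors was called, with FOSL1 at -0.04 (standard error 0.111). MCM10, a DNA replication factor, was the 1 call of 56 replication and G1/S genes and rose by 0.60, and CDK1, the mitotic kinase, the 1 call of 75 mitosis genes and rose by 0.62. Both lost their calls in all 6 fits without 1 library but that without CD44 WT replicate 1 (highest adjusted p 0.0480 and 0.0389). Of 34 CDK inhibitors and p53 targets, SESN3, a sestrin of the stress response, fell by 1.88, with the call lost without CD44 KO replicate 1 or 3 or CD44 WT replicate 3 (adjusted p up to 0.0225). The medians of the replication, mitosis and p53 lists were 0.10, 0.07 and 0.02. Log2 fold changes lay above 0 for 52 of 75 mitosis and 39 of 56 replication genes. CD44 KO lay above CD44 WT in every library for 24 mitosis genes and below for 1, and for 17 and 3 replication genes. Over all 13427 genes these counts were 1934 and 1741. At an adjusted p of at most 0.05, 7 mitosis genes were called higher and 0 lower, and 5 replication genes higher and 2 lower. Of all 13427 genes, 430 were higher and 396 lower there. Without CD44 WT replicate 1, 3 mitosis genes were called higher, and 1 gene was called in each direction in the replication, p53, metalloproteinase and integrin lists.

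Of 47 glycolysis, lactate and hypoxia genes outside distal 11p, PGM5 was called, and the list's median was -0.15. ADM, the hypoxia-inducible peptide adrenomedullin, is encoded in distal 11p, where 42 of all 182 tested genes were called lower, and fell by 1.27, from 129 ± 14.3 to 53.4 ± 17 CPM (SD, n = 3), a call lost without CD44 KO replicate 2 or 3 or CD44 WT replicate 3 (adjusted p up to 0.0359). None of 47 cholesterol and fatty acid synthesis genes and none of 46 glutathione, NRF2 target and ferroptosis defence genes was called, with medians of 0.03 and -0.06. Of 49 genes of the unfolded protein and ATF4 responses, CREB3L1, a membrane-bound transcription factor, rose by 1.05, a call lost without any 1 of the CD44 KO libraries or without the unnumbered CD44 WT library (adjusted p up to 0.0378). No S100 protein or annexin was called among 18 tested. The membrane-binding annexins ANXA2 and ANXA1 had log2 fold changes of -0.23 and -0.43 with adjusted p-values of 0.196 and 0.0270.

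Of 27 glucocorticoid metabolism and response genes, HSD11B1 rose and GLUL, glutamine synthetase, fell, from 71.0, 74.6 and 71.6 CPM in CD44 WT to 24.9, 27.5 and 28.6 CPM in CD44 KO (log2 fold change -1.42, standard error 0.106, adjusted p = 9.83e-05). The median of the list was -0.03, so that the rise of the enzyme that makes cortisol stood beside a list centred near 0.

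Interferon-stimulated genes outside distal 11p had 1 of 44 called, BST2, and a median of 0.12. In distal 11p, 4 of 7 were called and all fell, namely IFITM1, IFITM2 and IFITM3, which block virus entry, and the ubiquitin ligase TRIM21. Over distal 11p as a whole, 42 of 182 tested genes were called, all of them lower. IFITM3 was at 85.9, 106 and 112 CPM in CD44 KO and at 231, 198 and 183 CPM in CD44 WT (log2 fold change -1.01, standard error 0.131, adjusted p = 0.00209). IFITM2 fell by 1.15, IFITM1 by 2.52 and TRIM21 by 1.24. IFITM2 and IFITM3 lost their calls without CD44 KO replicate 2 (adjusted p of 0.0144 and 0.0140), and IFITM1 without CD44 KO replicate 1 or 2, CD44 WT replicate 3 or the unnumbered CD44 WT library (up to 0.0557). None of 15 genes of MHC class I presentation and immune ligands was called, although all 15 had log2 fold changes above 0 and their median was 0.27.

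Cancer-testis antigens, which are normally silent outside the germ line, had the largest share of called members, 8 of 20, with a median of -0.78. Most are X-linked, and 29 of 483 tested genes of the X chromosome were called, 27 of them lower. CTAG2 was at 0.0818, 0.306 and 0.386 CPM in CD44 KO and at 5.76, 11.4 and 9.01 CPM in CD44 WT (log2 fold change -5.02, adjusted p = 0.000202). MAGEA3 was at 7.12, 6.08 and 5.98 CPM against 57.8, 47.7 and 44.7 CPM, and MAGEE1, MAGEA11 and SPANXD fell by 3.92, 3.47 and 2.89. CT45A10 had 1 count over the CD44 KO libraries and 51 over the CD44 WT libraries, and the ratio was 58.5 (95% exact counting interval 10.0 to 2357, which covers counting error only). The other 2 calls are named after their values were seen. MAGED1, which is expressed more widely, fell by 0.84, and PAGE5 rose by 1.34, from 23.6, 29.5 and 24.6 to 67.1, 63.7 and 65.9 CPM. Several of these families hold near-identical copies, and fragments that aligned to several places were not counted, so that the levels of MAGEA3, CTAG2, SPANXD and CT45A10 are uncertain. MAGEA11 lost its call without CD44 KO replicate 1 or 2, SPANXD without CD44 KO replicate 2, and CT45A10 without any 1 of the CD44 KO libraries (highest adjusted p 0.0267, 0.0137 and 0.0205).

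TSPYL5, a relative of nucleosome assembly proteins that was in no list, had no counts in the CD44 KO libraries and 25, 60 and 38 counts in the CD44 WT libraries, at least 47.1-fold lower against the same floor. It and NTNG1 were the called genes without any count in a group. In all, 194 called genes were in no list, 124 lower and 70 higher.

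Distal 11p, the stretch from the end of the short arm to CD44, was lower in CD44 KO as a region. Of 866 listed genes 182 were tested, 42 were called, all lower, and 172 had log2 fold changes below 0 (94.5%). The median log2 fold change was -0.55, a fold of 0.681, with quartiles at -0.78 and -0.29, against -0.03 for the 576 tested genes of the rest of chromosome 11, of which 12 were called lower and 4 higher. The groups did not overlap for 127 of the 182 genes, with CD44 KO below in 125 and above in 2, where 27.4% of genes outside distal 11p did not overlap. Relative to the CD44 WT mean of each gene, the median was -0.49, -0.51 and -0.49 in CD44 KO replicates 1, 2 and 3, so that the libraries were alike.

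The summed level of distal 11p was 12234, 12787 and 11970 CPM in CD44 KO and 17383, 17414 and 18612 CPM in CD44 WT. The CD44 KO mean of 12330 ± 417 CPM was 69.3% of the CD44 WT mean of 17803 ± 701 CPM (SD, n = 3), and an exact two-sided permutation test gave p = 0.1, the smallest that 3 against 3 libraries allow. The decrease spanned the whole stretch. In steps of 5 Mb from CD44 outwards, the medians were -0.41 (24 genes), -0.38 (11 genes), -1.43 (5 genes), -0.43 (25 genes), -0.33 (24 genes), -0.56 (41 genes) and -0.77 (52 genes), whereas the first 5 Mb on the other side of CD44 had a median of 0.02 over 7 genes. Directly beside CD44, PDHX and APIP on the distal side had log2 fold changes of -0.33 and -0.19 (adjusted p of 0.106 and 0.383), and FJX1 and TRIM44 on the other side 0.02 and 0.07. In Hs578T, 170 of these genes were tested and had a median of 0.07.

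**Figure D4:**
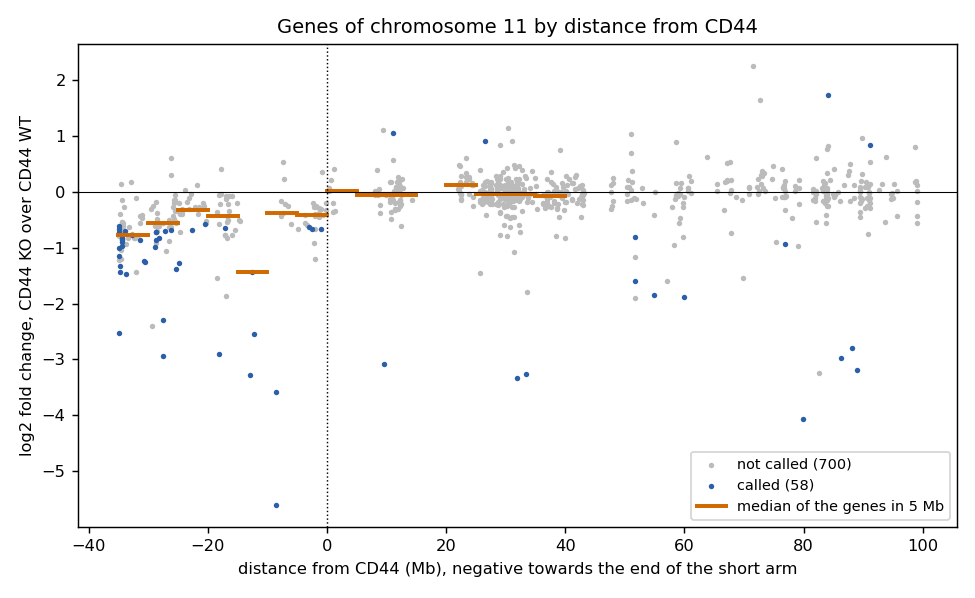
The log2 fold change, CD44 KO relative to CD44 WT (vertical axis), is plotted for each tested gene of chromosome 11 against its distance from CD44 in Mb (horizontal axis, negative towards the end of the short arm). Called genes are coloured and orange lines are medians over 5 Mb, which lie between -1.43 and -0.33 on the distal side and at 0.02 in the first 5 Mb beyond CD44.

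Single genes of distal 11p fell further than the region, and those given here are its largest called decreases among genes with a mean of at least 5 CPM and groups apart. PLEKHA7, an adherens junction protein, was at 3.03, 3.78 and 4.53 CPM in CD44 KO against 31.9, 25.5 and 26.8 CPM in CD44 WT (log2 fold change -2.90, standard error 0.177, adjusted p = 2.44e-05). SVIP, an inhibitor of protein degradation at the endoplasmic reticulum, was at 4.58, 2.66 and 3.76 CPM against 23.1, 21.2 and 18.3 CPM (log2 fold change -2.54). PKP3, a desmosomal plakophilin, fell by 1.44, FANCF, of the Fanconi anaemia DNA repair complex, by 1.43 and B4GALNT4, a glycosyltransferase, by 1.33. FANCF lost its call without CD44 KO replicate 1 or 2, CD44 WT replicate 3 or the unnumbered CD44 WT library (adjusted p up to 0.0377).

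Other stretches of the genome were shifted as well. The genome was divided, after the data had been seen, into 153 windows of 20 Mb with at least 20 tested genes, and 18 of them had a median log2 fold change 0.25 or more away from 0. Of these, 4 were lower, namely the 2 windows that hold distal 11p, the first 20 Mb of chromosome 2 (56 genes, median -0.47, 8 called lower and none higher) and the end of chromosome 3 from 180 Mb (99 genes, median -0.34, 6 called lower and none higher). The 14 higher windows lay on chromosomes 4, 7, 8, 10, 15 and 18, with medians up to 0.45. Over chromosome 18, 83.0% of 212 tested genes had log2 fold changes above 0 and the median was 0.33 (0.27 without CD44 WT replicate 1, and 0.01 in Hs578T). In most of the higher windows CD44 WT replicate 1 lay below the other CD44 WT libraries, and between 140 and 160 Mb of chromosome 4 the medians were 0.48, 0.41 and 0.38 in CD44 KO, -0.19 in CD44 WT replicate 1 and 0.10 and 0.14 in the others. The window at the start of chromosome 2 was also lower in Hs578T, with a median of -0.38, as were the other windows of chromosome 2 there, and all of chromosome 2 had a median of -0.25 in Hs578T and -0.01 in MDA-MB-231.

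**Figure D5:**
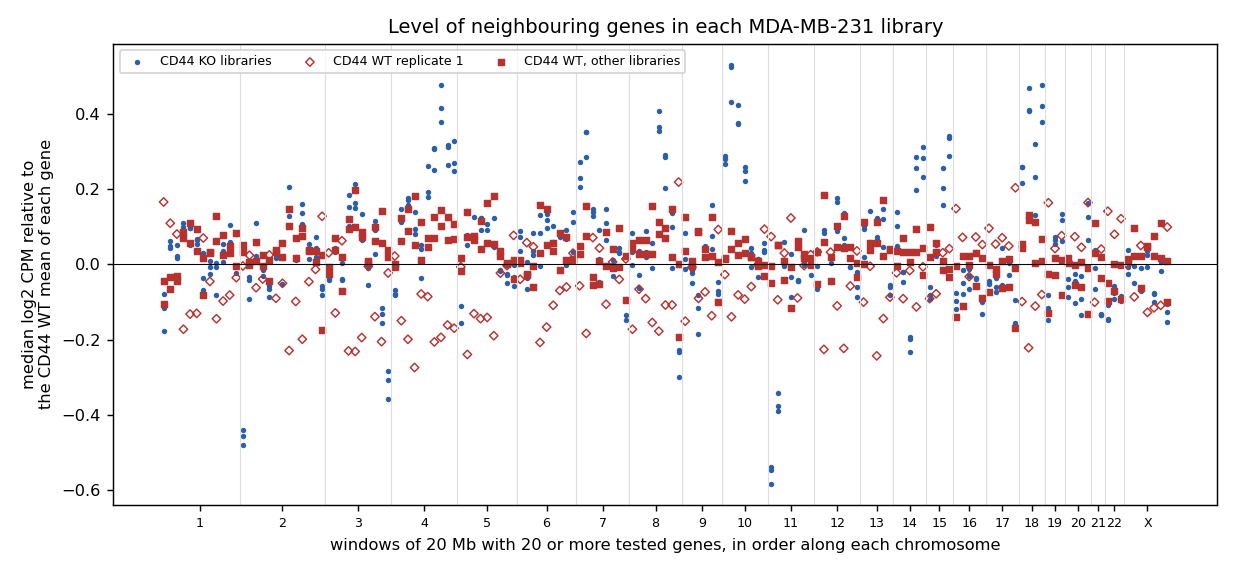
For each of 153 windows of 20 Mb (horizontal axis, in order along each chromosome), the median log2 CPM of its tested genes relative to the CD44 WT mean is plotted for each library (vertical axis). Blue points are the 3 CD44 KO libraries, red squares the CD44 WT libraries and open diamonds CD44 WT replicate 1, and the CD44 KO points stand apart at the start of chromosomes 2 and 11 and in parts of chromosomes 4, 7, 8, 10, 15 and 18, with a lowest window median log2 fold change of -0.58.

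Among the 799 tested genes of the 14 higher windows 24 were called higher and 5 lower, and among the 12465 tested genes outside all 18 windows 83 were called higher and 146 lower. Some named genes lay in shifted windows and had changed in the same direction. They were SERPINB7 and SERPINB2 (window median 0.42), MMP16 (0.35), ITGB8 (0.34), MCM10 (0.27) and BMI1 (0.45) among the increases, and LRATD1 (-0.47), EPHB3 and CLDN1 (-0.34) among the decreases. EPB41L3 (0.25), MATN2 and TSPYL5 (0.35) fell within windows that were higher. The part of these regional shifts in the change of single genes was not tested.

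The log2 fold change of CD44 KO relative to CD44 WT was tested for a difference between MDA-MB-231 and Hs578T. By the interaction term of a fit of all 12 libraries, 653 of 15836 genes (4.12%), tested with distal 11p included, were called. Of the 273 genes called in MDA-MB-231 outside distal 11p, 117 were among them, and all 8 called cancer-testis antigens. These genes were chosen by the same MDA-MB-231 libraries that enter the interaction. Their share is raised by this choice and does not show a response particular to this line. MCAM rose in MDA-MB-231 and fell in Hs578T, where its log2 fold change was -3.72, a difference of 5.45 (standard error 0.420, adjusted p = 1.88e-06). INHBA went the same way, with -2.67 in Hs578T and a difference of 4.68 (standard error 0.447, adjusted p = 1.02e-05). IL13RA2, PELI2 and CLDN1 fell in MDA-MB-231 and rose in Hs578T, with log2 fold changes there of 1.68, 1.83 and 4.06 and differences of -5.32, -4.89 and -6.21 (adjusted p of 6.71e-07, 8.25e-06 and 6.96e-07).

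Other genes that had changed in MDA-MB-231 lay near 0 in Hs578T and differed between the lines. BST2 had a log2 fold change of -0.18 there (difference 2.2, adjusted p = 8.60e-06), EEF1A2 one of -0.06 (difference 1.81, adjusted p = 6.00e-06), GLUL one of -0.12 (difference -1.31, adjusted p = 1.22e-05) and TGFBI one of -0.40 (difference 2.18, adjusted p = 0.000322). SYK and CCL2 fell in both lines, further in MDA-MB-231, with log2 fold changes of -1.32 and -1.53 in Hs578T and differences of -2.54 and -2.31 (adjusted p of 6.19e-05 and 0.00269). For EPB41L3 the difference of -5.69 had a standard error of 2.60 and was not called (adjusted p = 0.189). GPC4 fell in both lines, and its difference was not called (adjusted p = 0.0516). It lies between 120 and 140 Mb of the X chromosome, a stretch that was lower as a region in Hs578T. The window median was -0.33 for Hs578T (53 genes) and 0.02 for MDA-MB-231 (57 genes). GPC4 itself lay at -9.19 in Hs578T, and the part of the regional shift in its fall was not tested. HAS2, which did not pass in MDA-MB-231, rose by 2.86 in Hs578T, and this difference was called (-2.36, standard error 0.406, adjusted p = 0.00182).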

How the data were processed

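Alignment to GRCh38 was done by the authors with HISAT2 2.1.0, and featureCounts 1.6.2 counted fragments by strand on a GENCODE annotation with a minimum mapping quality. Their deposited table holds whole-number counts per gene without normalization. Names were matched for 57754 of 58381 genes, and target sites were read from the GRCh38 sequence. The 6 MDA-MB-231 libraries were fitted alone in R 4.3.3 with edgeR 4.0.16, on genes above 1 CPM in at least 2 libraries and at least 300 nt long. The methods word the length limit as genes under 300 nt, which was run as an alternative. TMM factors, the quasi-likelihood fit (glmQLFit, glmQLFTest) and 2 group means were used, and genes were called where p, adjusted by the method of Benjamini and Hochberg, was 0.01 or less. CPM values are on the TMM scale. Library totals of 10257586 to 19725543 counts limit the precision for weakly expressed genes. The difference between lines came from a fit of all 12 libraries.

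Distal 11p holds the genes of chromosome 11 that end before CD44. Genes were named by rule, apart from cell type markers such as KDR, PECAM1 and VIM and genes marked as named after their values were seen. The rule took CD44, the 15 largest called decreases and increases outside distal 11p with a mean of at least 5 CPM and groups apart, the 5 largest decreases in distal 11p within the same limits, up to 6 called members of each of 44 gene lists (in lists without calls, up to 2 with the highest mean), all tested hyaluronan genes and called genes with no counts in a group. The members, the lists and the rule were chosen with earlier results of these data known. The alternatives were DESeq2 1.42.0, other scalings, filters and thresholds, all 12 libraries, a replicate block and each library left out. In simulated counts of 13609 genes for this comparison, 75% of genes changed by a log2 fold of 1 and 95% of those changed by 2 were recovered, with 7 false calls. These counts were drawn independently for each gene, without a library that stood apart and without regional shifts. Recovery and false calls in the real libraries may therefore differ.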

Additional observations from a re-analysis of the deposited data

Results flagged for a closer look

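The log2 fold change of CD44 KO relative to CD44 WT differed between MDA-MB-231 and Hs578T for 653 genes. The limit was an adjusted p of at most 0.01, by the interaction term of edgeR's quasi-likelihood fit of all 12 libraries. Of the 100 called genes named for MDA-MB-231, 49 were among the 653. The same libraries chose the named genes, which raises this share. No group held more than 3 libraries, so that no single library was tested as far from the others of its group.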

How the results depend on the processing

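The decrease of CD44 and the negative median of distal 11p were found under every alternative in which they were computed, and no named gene that was called changed direction. The number of called genes, 315 in the main fit, was 296 to 323 with RLE factors, library size only, TMM factors without distal 11p genes, the newer quasi-likelihood fit, robust estimation, no length filter or a minimum of 10 counts. DESeq2 called 705 (379 lower, 326 higher; 634 outside distal 11p, 71 in it). Without a filter on low counts 964 were called (498 lower, 466 higher; 886 outside, 78 in distal 11p, whose median log2 fold change was -0.54). The fit of all 12 libraries called 731 (419 lower, 312 higher; 652 outside, 79 in distal 11p, median -0.57). An adjusted p of at most 0.05 gave 911 (481 lower, 430 higher; 826 outside, 85 in distal 11p), and a limit of 1 on the size of the log2 fold change left 226, of which 70 were higher and 18 in distal 11p. Among only the genes under 300 nt, 72 were tested, edgeR called 0 (10 at an unadjusted p under 0.05, smallest adjusted p 0.0452), DESeq2 called 0, and the median of distal 11p was -0.31. Fewer genes were tested there by construction, and for the other alternatives the cause was not tested.

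With each library left out in turn, 98 to 407 genes were called, 67 to 252 lower and 31 to 155 higher, 90 to 352 outside distal 11p and 8 to 55 in it, and the median of distal 11p ranged from -0.61 to -0.53. The lowest count came without CD44 KO replicate 2, the deepest library, and the highest without CD44 WT replicate 1.

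The correlations of the deviations of consecutively numbered CD44 WT and CD44 KO libraries were 0.137, 0.200 and -0.00139. For the other pairs of a CD44 WT and a CD44 KO library they ranged from -0.230 to 0.124, so that 0.137 and 0.200 lay above all of these. The main fit did not pair the samples, and these few correlations do not settle whether the numbers mark pairs. With a replicate block by consecutive library numbers 189 genes were called (130 lower, 59 higher; 165 outside, 24 in distal 11p), and 29 named genes lost their call. With a replicate block over the libraries numbered in both groups 237 were called, 27 of them in distal 11p, whose median was -0.57.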
